A study of Mus musculus with 19 samples.

Results

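The dissected heart with its outflow tract (OFT) was compared between embryos that had lost Chd7 in the Mesp1 lineage and control embryos, as the 8 'HEART' RNA-seq samples of a series of 19. The 4 cKO samples carried Mesp1-Cre with Chd7 fl/fl, and the 4 control samples carried Mesp1-Cre, the driver that both groups therefore share. All were of embryonic day 9.5 (E9.5), and the labels name no treatment and do not say whether the controls carried a floxed allele. According to the study's methods each sample was the heart tube and OFT of a single embryo. Mesp1-Cre recombines in the early mesoderm that gives rise to most heart muscle, endocardium and epicardium, and cells of other origin in the dissection are not targeted. RNA was measured on the whole dissection, in which fewer cells of a type and less RNA per cell cannot be told apart. All 24394 gene rows of the deposited count table are described here, and 12673 of them passed a filter on low counts and were tested. The total was 8621863 to 14998324 counts per sample.

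CHD7 is an ATP-dependent chromatin remodeller that slides nucleosomes, largely at enhancers, and heterozygous loss of the human gene causes CHARGE syndrome, in which heart and OFT malformations are common. At E9.5 the mouse heart is a looped, beating tube. Its muscle is still adding cells at both poles from the second heart field (SHF), the progenitor mesoderm that also builds the OFT, while the endocardial cushions, the trabeculae and the epicardium are forming. Gene classes were therefore taken from contraction and calcium handling, ion channels, matrix and adhesion, guidance cues, transcription factors, signalling, oxygen response, and the basic machinery of the cell.

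The targeted gene was examined first, with counts scaled to counts per 1000000 counts (CPM) by trimmed mean of M values (TMM) factors. Chd7 (chr4:8690406-8867659, GRCm38) was at 231, 225, 231 and 243 CPM in control 1 to 4 and at 35.8, 43.6, 42.8 and 20.4 CPM in cKO 1 to 4. Every cKO sample lay far below every control, cKO 4 being the lowest, and sample values are given in this order throughout, controls before cKO. The mean was 232 ± 7.58 CPM in the controls and 35.7 ± 10.8 CPM in the cKO samples (n = 4 each, ± SD), and the log2 fold change was -2.71 ± 0.18 (standard error) and an adjusted p of 9.1e-06 in edgeR's quasi-likelihood test with Benjamini-Hochberg adjustment. The source of the reads that remained in the cKO samples was not tested.

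Several samples stood apart in ways that the genotype label does not describe. Xist, the RNA of the inactive X chromosome, was at 61.5 CPM in control 1 and at 34.6 to 86.5 CPM in the cKO samples, but between 0.162 and 1.28 CPM in control 2 to 4. Y-linked genes had reads in control 2 and control 3, and Ddx3y was at 38.2 and 37.0 CPM there. Control 4 had 0 counts of Ddx3y, Eif2s3y, Kdm5d and Uty and 6 of Xist. By these genes the cKO samples resembled control 1, so the sex of the embryos moved with genotype. Control 4 alone held 8 genes of at least 10 CPM at 4 or more times the level of any other sample. These included the matrix genes Col1a1, at 716 CPM against 34.5 to 82.6 CPM in the other 7 samples, Postn, at 129.5 against at most 11.7 CPM, and Lum, at 56.3 against at most 1.99 CPM. The other samples had 1 such gene between them. Rn45s, the row of the 45S ribosomal RNA precursor, was at 3178, 6872, 7060.1 and 7078 CPM in control 1 to 4 and at 14404, 14000, 12834 and 6915 CPM in cKO 1 to 4 (adjusted p = 0.0438, edgeR). It was high in cKO 1 to 3, whereas cKO 4 lay within the control range, in libraries made by selection of polyadenylated RNA, and without cKO 1, 2 or 3 the adjusted p was 0.136, 0.135 and 0.113. The part of sex, of control 4 and of the ribosomal RNA in the results below was not tested.

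At an adjusted p of 0.1, 817 genes (6.45% of those tested) differed between the genotypes. Of these, 446 (3.52%) were higher and 371 (2.93%) were lower in cKO 'HEART', and 2102 genes had an unadjusted p under 0.05. The called members of each gene list below are to be read against these shares. In 699 of the 817 every cKO sample lay on 1 side of every control. Over all tested genes this held for 1295 (10.2%). The lower genes changed more, with a median log2 fold change of -0.72 and 111 (29.9%) at 2-fold or beyond. Among the higher genes the median was 0.50, and 81 (18.2%) reached 2-fold. The lower genes were also less abundant, with a median of 18.3 CPM against 37.3 CPM for the higher genes. In the most abundant quintile of genes, 5.17% were higher and 1.46% lower. Scaling by total counts in place of TMM shifted the median of all genes from -0.006 to -0.044 on the log2 scale and turned the split from 54.6% to 43.0% higher among 838 calls. The first principal component of the 500 most variable genes held 38.4% of the variance and separated the genotypes, and the second placed control 4 furthest from the other samples.

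**Figure D1:**
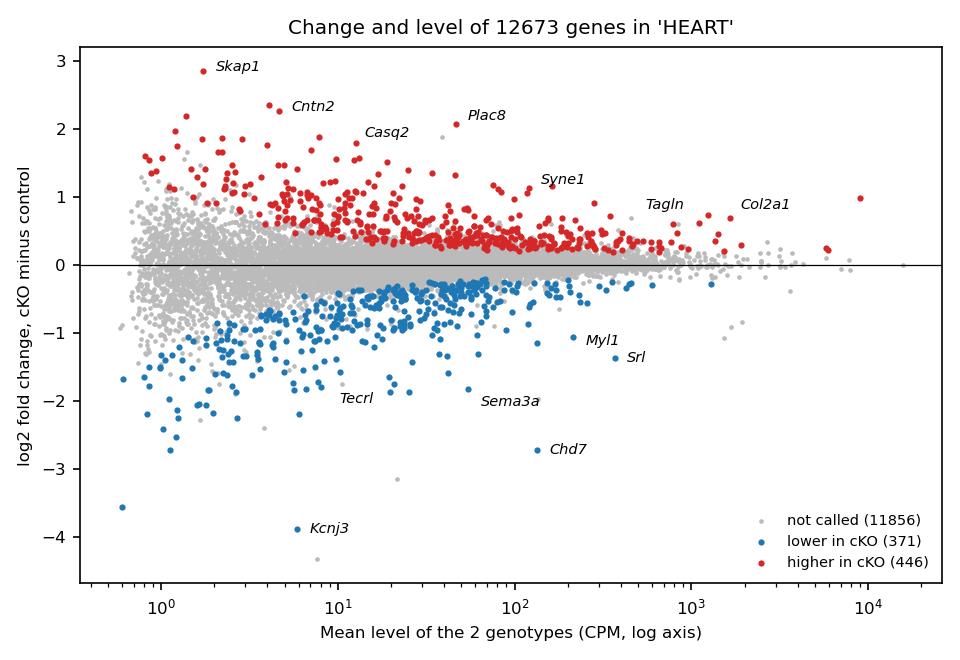
Log2 fold change (cKO minus control, y axis) against mean CPM (x axis, log scale) for the 12673 genes tested, one point per gene, with the 446 genes higher and the 371 genes lower in cKO at an adjusted p of 0.1 in colour. Chd7 and Kcnj3 lie far below 0, Skap1 and Plac8 far above it, and called genes are found at all levels of the x axis.

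The count of calls depended on single samples. It was 509 without control 1, 510 without cKO 1, 502 without cKO 2 and 1426 without cKO 4, and 1577 with neither control 4 nor cKO 4. With a term added to the model it was 221 with log2 Xist, 157 with log2 Rn45s and 240 with the prefix of the embryo code, a number in the sample labels whose meaning is not given and which cKO and control share only in replicates 3 and 4. These 3 fits kept 22.2%, 18.2% and 25.8% of the 817 calls, and they are referred to below as the Xist, Rn45s and code prefix fits. No gene named below as past the threshold took the opposite sign in any of them or with 1 sample left out. The samples cKO 1 and cKO 2 share the prefix 12, while control 1 and control 2 each have a prefix of their own. The code prefix fit therefore compares the genotypes only within replicates 3 and 4. A call lost in that fit cannot be told apart from an effect of the fewer samples compared. Xist was high in every cKO sample but only in control 1, and Rn45s itself differed between the genotypes. The added term in the Xist and Rn45s fits therefore overlaps with genotype. A call lost there cannot be told apart from an effect of that overlap. Most genes are named by a rule of smallest p or largest fold, whereas Col1a1, Postn, Lum, Rn45s, Nebl, Pln, Atp2a1, Klhl41, Trim72, Tecrl, Sgca, Kcnh7, Kcnma1, Synpo2, Lims2, Hapln1, Tgfb3, Bmp5, Bmpr1b, P4ha1 and Pfkfb3 were chosen after their values were seen.

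Some contraction genes were lower and most did not pass the test. Of 41 tested sarcomere genes 2 were higher and 9 lower in cKO 'HEART', where 3.52% and 2.93% of all tested genes were, and their median log2 fold change was -0.08. The lower ones included genes of fast muscle and of the Z-disc. Myl1, a myosin light chain of fast muscle (chr1:66924295-66945404), was at 299, 292, 300.0 and 265 CPM in the controls and 134, 147, 143 and 137 CPM in the cKO samples. The groups were 2.06-fold apart and tight within, giving -1.05 ± 0.07 on the log2 scale with an adjusted p of 9.1e-06. Tcap, the titin cap of the Z-disc, was at 27.3, 31.9, 30.7 and 25.5 CPM in the controls and 14.3, 17.3, 17.9 and 15.6 CPM in the cKO samples (-0.83 ± 0.11, adjusted p = 0.000837). Myoz1, a calcineurin-binding protein of the Z-disc (-0.92 ± 0.14), and Nebl, a thin-filament anchor (-0.54 ± 0.11), were lower too. Acta1, skeletal muscle actin, was instead higher (0.46 ± 0.07). Of the 15 cardiomyocyte markers only Actn2 was called (-0.27 ± 0.08, adjusted p = 0.0934), and their summed level was 48849 to 55417 CPM in the controls and 47608 to 52432 CPM in the cKO samples. All 15 were detected well above the filter, so the labelled tissue carried its defining markers. Actn2 lost its call when any 1 sample other than control 4 was left out. The lower sarcomere genes numbered 5 to 11 with 1 sample left out (the fewest without control 1) and 3, 3 and 4 in the Xist, Rn45s and code prefix fits.

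Among 28 tested genes of the calcium store and of excitation-contraction coupling, 9 were lower and 2 higher, several of them by large amounts. The share called was 39.3%, against 6.45% of all tested genes. The store is the sarcoplasmic reticulum, which releases calcium at each beat and takes it up again. Srl, the store's calcium-binding glycoprotein sarcalumenin, was at 485, 546, 626 and 461 CPM in the controls and 197, 209, 236 and 187 CPM in the cKO samples (-1.36 ± 0.10, adjusted p = 2.47e-05). Trdn, which anchors calsequestrin to the release channel, was at 43.1, 40.3, 44.5 and 30.9 CPM against 8.72, 11.98, 13.4 and 10.1 CPM (-1.86 ± 0.15, adjusted p = 2.47e-05). Both were lower in every cKO sample than in any control, 2.56-fold and 3.63-fold. Casq2, cardiac calsequestrin, the protein that Trdn anchors, went the other way. It was at 4.47, 5.73, 7.86 and 4.71 CPM in the controls and 17.5, 23.6, 17.8 and 19.6 CPM in the cKO samples (1.79 ± 0.17, adjusted p = 0.000139), with no overlap. Pln, the inhibitor of the store's calcium pump (-1.31 ± 0.27), and Atp2a1, a fast-muscle form of that pump (-0.90 ± 0.14), were lower. The number of lower members was 5 without control 3 and 5 without cKO 1, and 3, 4 and 5 in the 3 fits with an added term. Myl1, Tcap, Srl, Trdn and Casq2 kept adjusted p values under 0.1 in each of the Xist, Rn45s and code prefix fits, and Myoz1, Nebl, Acta1, Pln and Atp2a1 did not in at least 1 (highest 0.266 for Pln in the Xist fit).

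Many genes of muscle enzymes, ubiquitin ligase adaptors and muscle membrane proteins were lower. On a list written after the values were seen, 36 of 65 tested members were lower and none was higher at this threshold, with a median of -0.50, which describes the choice of members as much as the data. Klhl41, an adaptor that stabilises thin-filament proteins, was at 22.2, 25.4, 25.7 and 16.6 CPM in the controls and 8.80, 9.52, 10.7 and 9.93 CPM in the cKO samples (-1.21 ± 0.14, adjusted p = 0.000508). Trim72, a protein of membrane repair, was at 7.26, 7.69, 8.83 and 5.79 CPM against 2.20, 2.79, 3.17 and 2.93 CPM (-1.42 ± 0.19, adjusted p = 0.00105). Tecrl, an endoplasmic reticulum protein whose human gene is mutated in a catecholamine-sensitive arrhythmia, was at 32.3, 28.1, 30.9 and 35.8 CPM against 5.58, 9.19, 14.9 and 9.01 CPM (-1.75 ± 0.21, adjusted p = 0.000517). Sgca, alpha-sarcoglycan of the dystrophin complex, followed with -1.06 ± 0.14. All 4 separated the genotypes without overlap and kept their calls in the 3 fits. Asb4, an adaptor for ubiquitin ligases outside that list, was at 136, 127, 105 and 105 CPM in the controls and 59.6, 66.8, 56.1 and 63.1 CPM in the cKO samples (-0.95 ± 0.10, adjusted p = 0.000209). The list had 26 to 37 lower members when 1 sample was left out and 12, 11 and 18 in the Xist, Rn45s and code prefix fits. Of 21 genes of fatty acid uptake and oxidation 4 were lower and none higher, with a median of -0.05. Cd36, the fatty acid transporter, led the lower ones at 27.7, 30.4, 29.0 and 30.4 CPM in the controls and 14.7, 13.8, 18.6 and 16.4 CPM in the cKO samples (-0.89 ± 0.10, adjusted p = 0.000508). With 1 sample left out the lower members numbered 2 to 4.

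**Figure D2:**
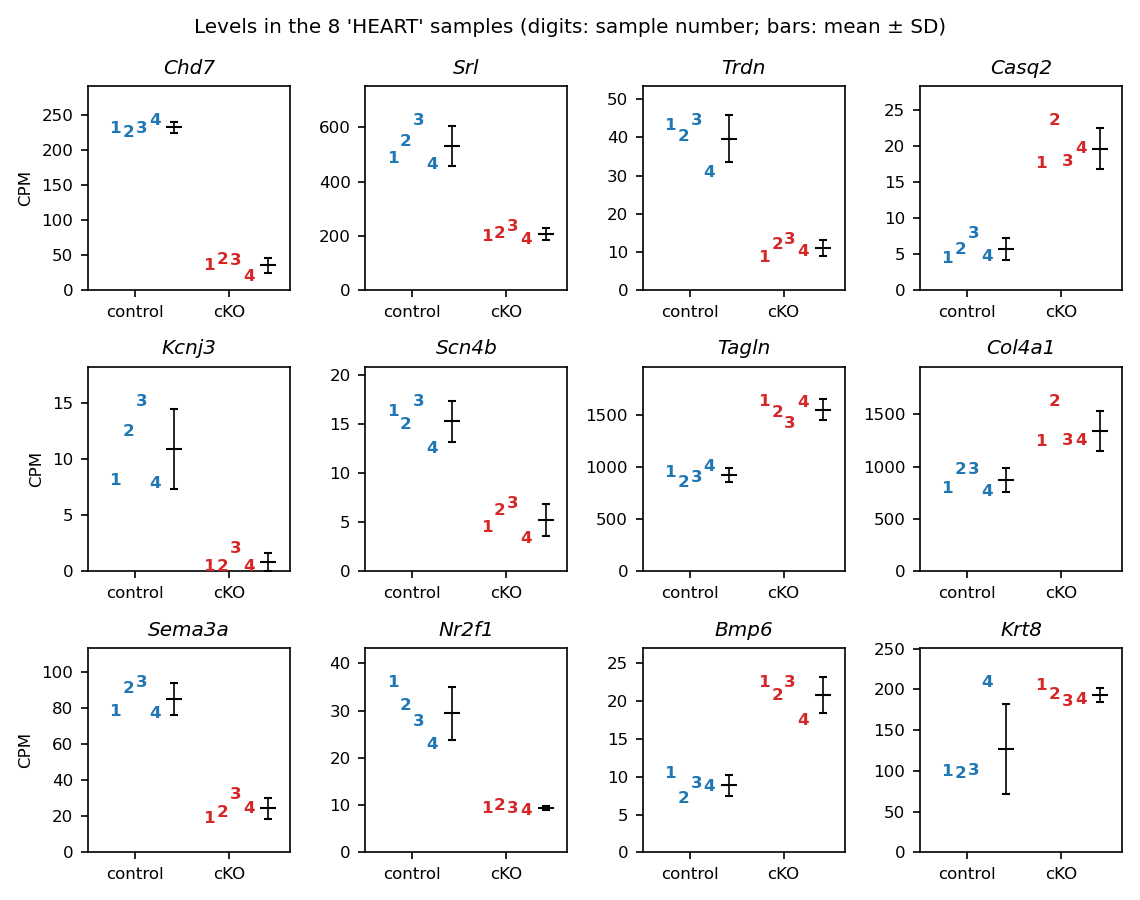
CPM (y axis, from 0) of 12 genes of several classes in each sample, with the sample number as the symbol, control in blue, cKO in red, and the mean ± SD of each genotype (n = 4) as a bar beside the points. The genotypes do not overlap in 11 of the genes, and in Krt8 control 4 lies at the cKO level.

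Ion channel genes changed in both directions. Of 46 tested potassium channel subunits 6 were higher and 6 lower, and of 35 calcium, sodium and TRP channel subunits 1 was higher and 7 lower. The shares called were 26.1% and 22.9%, against 6.45% of all tested genes. The median log2 fold changes of these 2 lists were -0.15 and 0.00, against -0.006 over all tested genes. Kcnj3, a subunit of the acetylcholine-gated potassium channel that slows the atrium, had the largest fold of any called gene named here. It was at 8.10, 12.5, 15.1 and 7.86 CPM in the controls and 0.393, 0.410, 1.99 and 0.462 CPM in the cKO samples (-3.88 ± 0.41, adjusted p = 0.000284). The controls were spread and cKO 3 stood above the other cKO samples, but the groups did not overlap. Kcnd2, a subunit of the transient outward channel, was lower at -2.13 on the log2 scale. It had few reads, with a mean of 2.02 CPM in the controls and 0.457 CPM in the cKO samples. Kcnh7, an ether-a-go-go related subunit, was lower at -1.49. On the higher side, Kcnip1, an accessory protein of the Kcnd subunits, rose by 1.22 ± 0.19 and Kcnma1, the pore of the large-conductance calcium-activated channel, by 1.27 ± 0.24.

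Scn4b, an accessory beta subunit of sodium channels, was at 16.3, 14.96, 17.3 and 12.5 CPM in the controls and 4.48, 6.16, 6.92 and 3.39 CPM in the cKO samples (-1.57 ± 0.20, adjusted p = 0.000686). Cacna1d, the L-type calcium channel pore of the atria and the pacemaker, was at 48.1, 43.8, 57.4 and 55.1 CPM against 26.2, 25.4, 29.0 and 16.4 CPM (-1.08 ± 0.15, adjusted p = 0.00121). Grin3a, a glutamate receptor subunit that is on neither list, was at 65.4, 46.7, 67.5 and 57.4 CPM against 25.1, 23.7, 26.7 and 18.3 CPM (-1.34 ± 0.13, adjusted p = 0.000159). All 3 were lower in every cKO sample than in any control. Cacng6, an accessory calcium channel subunit (-1.32 ± 0.20), was lower as well, while Trpv2, a TRP family cation channel, rose by 1.04 ± 0.15. Kcnj3, Scn4b, Cacna1d, Grin3a and Cacng6 kept adjusted p values under 0.1 in the Xist, Rn45s and code prefix fits, and Kcnd2, Kcnh7, Kcnip1, Kcnma1 and Trpv2 lost them in at least 1 (highest 0.208 for Kcnma1 in the Xist fit).

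**Figure D3:**
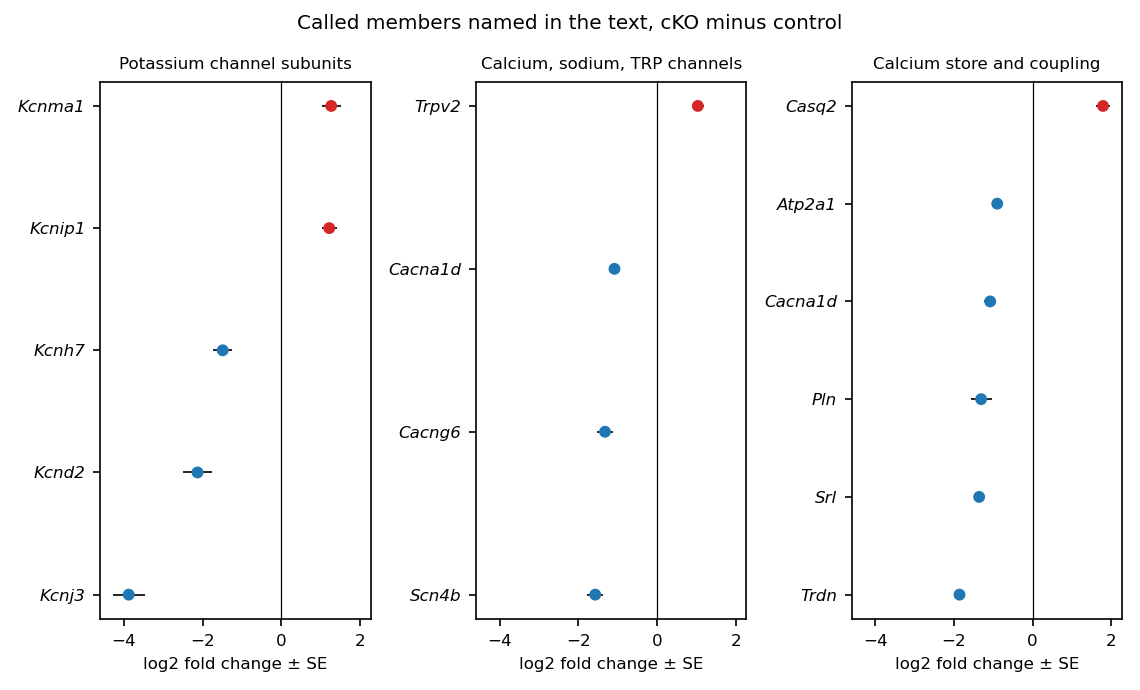
Log2 fold change (cKO minus control, x axis, bars are the standard error) of the members that the text names of the potassium channel list, of the calcium, sodium and TRP channel list and of the calcium store list, one row per gene, with higher genes in red and lower ones in blue. Potassium channel subunits lie on both sides of 0, with Kcnj3 at -3.88 the furthest below it.

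Genes of smooth muscle, several of which the early heart tube also expresses, were higher in part. Of 13 tested markers 5 were higher and 1 lower (46.2% called, against 6.45% of all tested genes), with a median of 0.31. Their summed level was 8339 to 9347 CPM in the controls and 10434 to 11514 CPM in the cKO samples, without overlap. Tagln, an actin-binding protein, was at 953, 856, 899.8 and 1008 CPM in the controls and 1637, 1530.1, 1420.2 and 1627 CPM in the cKO samples (0.74 ± 0.07, adjusted p = 0.000133). Csrp1, a LIM protein, was at 649, 578, 579 and 705 CPM against 1021, 945, 871 and 972 CPM (0.60 ± 0.08, adjusted p = 0.000876), and Myh11, smooth muscle myosin heavy chain, at 8.68, 7.95, 10.6 and 12.5 CPM against 33.0, 39.2, 21.9 and 19.02 CPM (1.52 ± 0.22, adjusted p = 0.00179). Each was higher in every cKO sample than in any control, Myh11 by the widest margin. Cnn1, calponin, rose by 0.52 ± 0.07. Synpo2, an actin-bundling protein, was the lower member (-0.47 ± 0.13, adjusted p = 0.0735), and it lost that call without any 1 of the controls or of cKO 1, 2 and 3. The higher members numbered 4 to 8 when 1 sample was left out.

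Some of the genes that link the cell to its matrix were higher. Itga1, the alpha 1 subunit of a collagen and laminin receptor, was at 36.0, 49.0, 51.4 and 41.1 CPM in the controls and 72.0, 78.0, 73.1 and 69.5 CPM in the cKO samples (0.72 ± 0.10, adjusted p = 0.00167), and its partner Itgb1 rose by 0.34 ± 0.07. Of 20 tested integrin genes 3 were higher and 2 lower (25.0% called, against 6.45% of all tested genes). Ptk2b, a kinase related to focal adhesion kinase, was at 43.2, 41.9, 48.4 and 50.2 CPM against 116, 117, 105 and 79.5 CPM (1.18 ± 0.12, adjusted p = 0.000145). Lims2, an adaptor that binds integrin-linked kinase, was at 2.72, 4.10, 2.67 and 3.80 CPM against 13.5, 12.8, 9.27 and 7.47 CPM (1.70 ± 0.22, adjusted p = 0.000898). Itga1, Itgb1, Ptk2b and Lims2 were higher in every cKO sample than in any control, cKO 4 being the lowest of the cKO samples in each. On a list of integrin adhesion components written after the values were seen, 14 of 58 members were higher and 2 lower. The share called was 27.6%, against 6.45% of all tested genes, which describes the choice of members as much as the data. The number of higher members was 4 to 24 with 1 sample left out. It was 3, 1 and 3 in the Xist, Rn45s and code prefix fits. Syne1, which links the nuclear envelope to the cytoskeleton, had the smallest p of the higher genes, at 70.3, 70.2, 85.9 and 73.2 CPM in the controls and 162, 195, 167 and 138 CPM in the cKO samples (1.14 ± 0.10, adjusted p = 9.99e-05).

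The basement membrane, the sheet of collagen IV and laminin under endocardium, epicardium and muscle, was higher in several of its parts. Col4a1 was at 787, 969, 974 and 766 CPM in the controls and 1237, 1624, 1246 and 1249 CPM in the cKO samples (0.62 ± 0.11, adjusted p = 0.00539), and Col4a2, its partner in the main collagen IV trimer, at 622, 787, 734 and 633 CPM against 894, 1048, 923 and 975 CPM (0.47 ± 0.08, adjusted p = 0.00707). Lama4, the laminin alpha chain of vessels, rose by 0.47 ± 0.08 and Lamb1 by 0.36 ± 0.08. Lama2, the alpha chain of muscle laminin, was instead lower (-1.03 ± 0.19). Among fibrillar collagens, Col2a1, best known from cartilage but present in the cushions, was at 1335, 1041, 1296 and 1369 CPM against 2092, 2119, 1839 and 2119 CPM (0.70 ± 0.09, adjusted p = 0.000686). Col3a1 was at 138, 201, 179 and 224 CPM against 72.9, 96.6, 81.9 and 83.8 CPM (-1.14 ± 0.13, adjusted p = 0.000508), lower in every cKO sample. So collagens II and III differed in opposite directions in the same samples. Of 33 collagens 6 were higher and 2 lower, and of 12 laminins and nidogens 3 and 1. The shares called were 24.2% and 33.3%, against 6.45% of all tested genes.

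The enzymes that crosslink or cut the matrix split likewise. Loxl1, a lysyl oxidase of elastic fibres, was at 19.6, 18.97, 22.8 and 24.1 CPM in the controls and 36.8, 34.1, 36.9 and 32.9 CPM in the cKO samples (0.72 ± 0.10, adjusted p = 0.00105). Tnc, tenascin C, rose by 0.91 ± 0.18, whereas Hapln1, which ties hyaluronan to proteoglycans in the cardiac jelly, was lower (-0.56 ± 0.12). Of 38 ADAM and matrix metalloprotease genes 5 were higher and 5 lower (26.3% called, against 6.45% of all tested genes). Adamts19 (-1.84 ± 0.34) and Adamts5 (-1.31 ± 0.26), secreted proteases of which the latter cleaves versican, were lower. Both had few reads, at means of 2.92 against 0.788 CPM and 3.42 against 1.38 CPM, controls before cKO. Adam19, a membrane protease of the cushions, was higher (0.46 ± 0.07). Of the genes in these 3 groups, Tagln, Csrp1, Cnn1, Ptk2b, Syne1, Col2a1, Col3a1 and Loxl1 kept their calls in the Xist, Rn45s and code prefix fits. The others (Myh11, Itga1, Itgb1, Lims2, Col4a1, Col4a2, Lama4, Lamb1, Lama2, Tnc, Hapln1, Adamts19, Adamts5 and Adam19) did not in at least 1, with a highest adjusted p of 0.521 for Itgb1 in the Rn45s fit.

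Guidance cues are the secreted and membrane proteins that steer axons, neural crest cells and vessels, and several of them were far lower in cKO 'HEART'. Of 23 slit, robo, netrin and related genes 6 were lower and 3 higher (median -0.29). Of 25 semaphorins and plexins 4 were lower and 1 higher, and of 17 ephrins and Eph receptors 3 and 1. Sema3a, a secreted repellent (chr5:13125414-13602565), was at 77.9, 90.8, 94.2 and 76.8 CPM in the controls and 18.5, 22.3, 31.9 and 24.4 CPM in the cKO samples (-1.82 ± 0.14, adjusted p = 2.47e-05). Slitrk5, a leucine-rich transmembrane protein, was at 34.3, 25.4, 36.0 and 28.9 CPM against 6.92, 9.36, 10.2 and 7.93 CPM (-1.87 ± 0.15, adjusted p = 2.47e-05). Epha7, a receptor for ephrin A ligands, was at 84.7, 75.3, 88.0 and 81.1 CPM against 36.2, 43.1, 41.99 and 39.7 CPM (-1.03 ± 0.08, adjusted p = 2.47e-05). All 3 separated the genotypes widely in every sample. Slit2, ligand of the Robo receptors, was at 59.6, 71.6, 78.5 and 42.3 CPM against 14.2, 22.3, 26.4 and 21.6 CPM (-1.59 ± 0.20, adjusted p = 0.000686), and Unc5c, a netrin receptor, at 32.9, 29.1, 31.7 and 28.0 CPM against 18.9, 15.8, 14.3 and 13.7 CPM (-0.95 ± 0.11, adjusted p = 0.000508). Sema3c, the semaphorin of the OFT that attracts cardiac neural crest, was lower by a smaller margin, at 72.6, 50.5, 86.0 and 73.4 CPM against 48.0, 41.2, 47.4 and 36.0 CPM (-0.72 ± 0.14, adjusted p = 0.0123). Cntn2, a contactin of axons, was the member with the largest rise, at 1.88, 2.48, 1.46 and 0.579 CPM against 8.09, 7.39, 6.33 and 9.16 CPM (2.27 ± 0.30, adjusted p = 0.000898). Slit3, which binds the same receptors as Slit2, was higher at 0.34 ± 0.07, so these slits differed in opposite directions. Of the cell adhesion genes related to these, Pcdhac2, a clustered protocadherin, was lower (-2.19 ± 0.24) and Cdh13, a cadherin anchored by a lipid, higher (0.75 ± 0.11). Sema3c and Slit3 lost their calls in the Xist, Rn45s or code prefix fit (highest 0.407 for Slit3 in the Rn45s fit), and the others named here did not.

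For most transcription factors of heart development no difference passed the test. Of 42 listed cardiac factors 7 were lower and 1 higher, with a median of 0.00. When 1 sample was omitted 5 to 7 were lower, and 8 were higher without cKO 4. In the Xist, Rn45s and code prefix fits 3, 2 and 5 were lower. Nr2f1, an orphan nuclear receptor of atrial and progenitor mesoderm, was at 36.0, 31.0, 27.6 and 22.9 CPM in the controls and 9.27, 9.93, 9.27 and 8.93 CPM in the cKO samples (-1.65 ± 0.14, adjusted p = 3.57e-05). Zfpm2, the GATA4 cofactor FOG2, was at 33.1, 30.3, 33.9 and 24.9 CPM against 16.0, 17.1, 17.7 and 16.9 CPM (-0.86 ± 0.11, adjusted p = 0.000686), and Hand2, required for SHF and right ventricle, at 164, 142, 161 and 136 CPM against 106, 107, 95.4 and 105 CPM (-0.54 ± 0.08, adjusted p = 0.00167). Each was below every control in all 4 cKO samples. Of 28 nuclear receptors 5 were lower and 1 higher, the lower ones including Rxrg (-1.61 ± 0.29) and Rarb (-0.56 ± 0.12), receptors of the retinoid family. Rxrg had few reads, with a mean of 3.58 CPM in the controls and 1.14 CPM in the cKO samples. Among 46 homeobox genes 6 were lower and 2 higher. The shares called were 21.4% of the nuclear receptors and 17.4% of the homeobox genes. Prrx1, a factor of mesenchyme, was at 9.39, 10.5, 8.75 and 19.3 CPM in the controls and 3.46, 4.43, 2.81 and 3.62 CPM in the cKO samples (-1.72 ± 0.26, adjusted p = 0.00225), with control 4 well above the other controls. Irx3 was lower (-0.53 ± 0.12) and Irx1 higher (0.69 ± 0.12), both being factors of the ventricular wall. Of 327 zinc finger genes named Zfp 5 were higher and 1 was lower (1.83% called, below the 6.45% of all tested genes). The higher ones numbered 18 without cKO 4, 23 with neither control 4 nor cKO 4 and 0 in the Xist, Rn45s and code prefix fits.

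The markers of the OFT and the anterior SHF were lower in part. Of 17 tested, 5 (29.4%) were lower and none was higher by edgeR, with a median of -0.40. In 6 the genotypes did not overlap, as in 10.2% of all tested genes. The lower members numbered 4 to 6 with 1 sample left out and 3, 0 and 4 in the Xist, Rn45s and code prefix fits. Their summed level overlapped, at 1123 to 1496 CPM in the controls and 924 to 1267 CPM in the cKO samples, cKO 4 being the lowest of the 8. Fgf10, the growth factor that marks the anterior SHF, was at 12.96, 8.29, 9.56 and 17.6 CPM in the controls and 4.87, 5.09, 5.16 and 3.23 CPM in the cKO samples (-1.41 ± 0.24, adjusted p = 0.00468). Fst, follistatin, was at 7.38, 5.04, 5.51 and 7.69 CPM against 2.75, 1.72, 2.81 and 2.62 CPM (-1.38 ± 0.22, adjusted p = 0.00343). Etv1, a factor that responds to FGF signalling, was at 15.4, 15.2, 15.9 and 9.84 CPM against 5.19, 4.76, 7.62 and 4.39 CPM (-1.38 ± 0.20, adjusted p = 0.00161). Of 21 FGF pathway genes 3 (14.3%) were lower and none higher, the other being Flrt3, a transmembrane modulator of FGF receptors (-0.52 ± 0.08). Of the transcription factors and these genes, Nr2f1, Zfpm2 and Etv1 kept their calls in the 3 fits and Hand2, Rxrg, Rarb, Prrx1, Irx3, Irx1, Fgf10, Fst and Flrt3 did not, with a highest adjusted p of 0.472 for Rarb in the Rn45s fit.

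Of the other signalling pathways, that of BMP and TGF-beta had the most calls, with 6 of 33 genes higher and 3 lower. The share called was 27.3%, against 6.45% of all tested genes. Bmp6, a ligand of endocardium and muscle, was at 10.4, 7.09, 9.15 and 8.77 CPM in the controls and 22.5, 20.7, 22.5 and 17.4 CPM in the cKO samples (1.22 ± 0.13, adjusted p = 0.000389). Tgfb2 (0.49 ± 0.09) and Tgfb3 (0.84 ± 0.16), ligands that act in cushion formation, and Id4, an inhibitor of bHLH factors (0.82 ± 0.13), also rose. The ligand Bmp5 (-0.47 ± 0.08) and the receptor Bmpr1b (-1.0 ± 0.19) fell. Ligands and a receptor of the same pathway thus moved in both directions. With 1 sample left out 6 to 10 members were higher and 3 lower. Igfbp3, which binds insulin-like growth factors, was at 19.05, 21.2, 20.1 and 16.9 CPM against 45.6, 65.8, 37.4 and 47.3 CPM (1.35 ± 0.15, adjusted p = 0.000392). In Wnt signalling 3 of 35 genes were higher and 1 lower, led by Ror1, a receptor kinase for Wnt ligands (1.09 ± 0.23). In Notch signalling 2 of 21 were higher and 1 lower. The shares called were 11.4% for Wnt and 14.3% for Notch. Leaving out 1 sample, 1 to 5 Notch genes were higher, the most without cKO 3, and 0 to 1 lower. In the Rn45s fit none of the Wnt or Notch genes was higher and 1 BMP and TGF-beta gene was. Bmp6 and Igfbp3 kept their calls in the Xist, Rn45s and code prefix fits, and Tgfb2, Tgfb3, Id4, Bmp5, Bmpr1b and Ror1 did not (highest 0.439 for Tgfb3 in the Rn45s fit).

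Many genes of the hypoxia response were higher. In this response the HIF factors, no longer marked for destruction by oxygen-dependent prolyl hydroxylases, bind the core motif ACGTG near genes of glycolysis, matrix synthesis and their own feedback. Of 28 tested members 14 (50.0%) were higher, against 3.52% of all tested genes, and none lower by edgeR, with a median of 0.40. Egln3, a prolyl hydroxylase, was at 9.72, 10.6, 10.9 and 13.1 CPM in the controls and 15.1, 26.9, 17.9 and 20.7 CPM in the cKO samples (0.87 ± 0.17, adjusted p = 0.00988). Bhlhe40, a transcriptional repressor, was at 13.2, 17.9, 23.0 and 20.8 CPM against 38.0, 49.3, 27.4 and 32.1 CPM (0.98 ± 0.19, adjusted p = 0.00995), Bnip3, of mitochondrial turnover, at 103, 114, 105 and 147 CPM against 159, 204, 149 and 210.2 CPM (0.62 ± 0.13, adjusted p = 0.0175), and Adm, the vasodilator peptide adrenomedullin, at 16.1, 18.5, 13.8 and 16.5 CPM against 29.5, 25.9, 22.5 and 24.9 CPM (0.67 ± 0.11, adjusted p = 0.00479). P4ha1, which hydroxylates collagen, rose by 0.43 ± 0.10, and Pfkfb3, an activator of glycolysis, by 0.63 ± 0.15. In these genes the lowest cKO sample exceeded the highest control by a narrow margin or none, and the summed level of the list was 7254 to 9004 CPM in the controls, highest in control 4, and 8576 to 10072 CPM in the cKO samples. Ndufa4l2, a mitochondrial protein induced by low oxygen, rose by 1.48 ± 0.25. Of 20 glycolysis genes 2 were higher, or 0 to 4 with 1 sample left out, and 1 was lower. The number of higher members of the hypoxia list was 6 without control 1 or without cKO 2 and 8 without control 2. It was 18 without control 4, 16 without cKO 4 and 21 with neither control 4 nor cKO 4. It was 4, 0 and 1 in the Xist, Rn45s and code prefix fits, in which adjusted p values reached 0.682 for Pfkfb3 in the Rn45s fit. P4ha1 and Pfkfb3 lost their calls without control 1 or cKO 2 (adjusted p of 0.114 and 0.117 without control 1).

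The promoters of 4 of these higher genes are shown because they hold that motif. Each is the 250 bases before the RefSeq start site on GRCm38.p6, written 5′ to 3′ on the strand of the gene, with ACGTG, or its reverse complement CACGT, in capitals. In Bnip3 the base after the capitals is g, so CACGT and ACGTG overlap there and only CACGT is in capitals. The capitals start 108, 229, 16 and 60 bases before the start site of Bnip3 (chr7:138909507-138909756, minus strand), Egln3 (chr12:54203875-54204124, minus strand), P4ha1 (chr10:59323046-59323295, plus strand) and Pfkfb3 (chr2:11553930-11554179, minus strand).
Bnip3: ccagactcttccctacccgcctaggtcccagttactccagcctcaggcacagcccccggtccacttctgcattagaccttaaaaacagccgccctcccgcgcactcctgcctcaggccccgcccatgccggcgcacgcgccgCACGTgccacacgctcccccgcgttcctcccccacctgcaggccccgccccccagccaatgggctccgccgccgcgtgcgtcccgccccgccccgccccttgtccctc
Egln3: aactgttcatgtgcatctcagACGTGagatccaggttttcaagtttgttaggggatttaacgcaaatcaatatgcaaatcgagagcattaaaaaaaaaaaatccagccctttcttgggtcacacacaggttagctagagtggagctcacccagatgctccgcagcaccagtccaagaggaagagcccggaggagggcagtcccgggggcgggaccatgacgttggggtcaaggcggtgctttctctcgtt
P4ha1: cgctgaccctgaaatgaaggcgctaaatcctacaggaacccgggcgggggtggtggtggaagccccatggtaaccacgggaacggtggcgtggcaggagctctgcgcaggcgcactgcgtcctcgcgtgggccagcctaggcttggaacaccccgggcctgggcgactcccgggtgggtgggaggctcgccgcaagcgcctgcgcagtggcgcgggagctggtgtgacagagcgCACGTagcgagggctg
Pfkfb3: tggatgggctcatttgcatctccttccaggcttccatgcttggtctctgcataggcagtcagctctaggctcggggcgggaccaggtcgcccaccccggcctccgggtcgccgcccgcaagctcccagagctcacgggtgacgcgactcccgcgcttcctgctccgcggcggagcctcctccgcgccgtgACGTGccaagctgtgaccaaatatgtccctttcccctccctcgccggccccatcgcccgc
ACGTG was searched on both strands of this window in every gene with a promoter in the RefSeq table. It was in 8 (66.7%) of the 12 higher members of the hypoxia list that have an entry, in 4 (36.4%) of the 11 members that were not called, in 22.2% of 9670 promoters of tested genes and in 16.6% of all 27025. The list was compiled from known targets of this response, so a high share describes how the list was made, and a match is not shown to be a binding site.

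The strongest remaining genes belong to no single class. Plac8, a cysteine-rich protein first found in placenta, was at 22.4, 14.7, 11.5 and 22.6 CPM in the controls and 80.2, 75.3, 55.2 and 88.9 CPM in the cKO samples (2.07 ± 0.20, adjusted p = 0.000133). Akr1b8, an aldo-keto reductase, was at 36.5, 41.4, 43.7 and 37.4 CPM against 69.9, 68.2, 66.5 and 72.7 CPM (0.81 ± 0.08, adjusted p = 0.000133). Glipr2, a Golgi-associated protein, was at 122, 116, 109.8 and 125 CPM against 195, 195, 179 and 201 CPM (0.70 ± 0.07, adjusted p = 0.000137). Each was higher in every cKO sample than in any control. Further rises without overlap were those of Enpep, an aminopeptidase that cleaves angiotensin (1.17 ± 0.12), Clu, the extracellular chaperone clusterin (0.84 ± 0.10), Tubb6, a beta-tubulin (0.70 ± 0.08), Gstt1, a glutathione transferase (1.40 ± 0.18), Ston1, an endocytic adaptor (0.88 ± 0.11), and Ppp1r16b, a regulatory subunit of protein phosphatase 1 (1.16 ± 0.14). On the lower side, Perp, a desmosome protein that p53 can induce, was at 37.2, 38.9, 39.8 and 37.1 CPM in the controls and 13.9, 11.7, 18.41 and 13.7 CPM in the cKO samples (-1.42 ± 0.12, adjusted p = 3.82e-05). Serpinb6b, an intracellular protease inhibitor (-1.09 ± 0.12), and Gpr22, an orphan receptor of heart and brain (-1.73 ± 0.20), were lower without overlap. All of these kept their calls in the Xist, Rn45s and code prefix fits.

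Several large folds belonged to genes of few reads. Skap1, an adaptor of immune cell adhesion, was at 0.842, 0.171, 0.324 and 0.248 CPM in the controls and 3.38, 3.12, 3.05 and 2.77 CPM in the cKO samples (2.85 ± 0.38, adjusted p = 0.00101), the largest rise among called genes of at least 2 CPM in a genotype. Il33, an alarmin cytokine, was at 1.43, 1.54, 0.729 and 1.24 CPM against 4.72, 4.76, 3.75 and 4.77 CPM (1.86 ± 0.25, adjusted p = 0.00105). Rbfox3, a splicing factor best known from neurons, was at 3.43, 1.79, 2.43 and 5.71 CPM against 16.5, 13.7, 10.2 and 9.09 CPM (1.89 ± 0.30, adjusted p = 0.00297). Il15, another cytokine, fell from 6.41, 3.76, 3.64 and 3.89 to 1.57, 0.410, 1.17 and 0.616 CPM (-2.25 ± 0.36, adjusted p = 0.00363), and Zcchc5 from 3.50, 2.99, 2.92 and 3.56 to 1.100, 0.739, 0.469 and 0.462 CPM (-2.18 ± 0.30, adjusted p = 0.00122). The groups did not overlap in any of the 5. Il33, Rbfox3 and Il15 lost their calls in at least 1 of the 3 fits (highest 0.179 for Rbfox3 in the Rn45s fit), and Skap1 was at 0.114 with control 1 as the only control.

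Basic machinery showed few calls with all samples in the fit. None of 81 ribosomal protein genes, 47 proteasome subunits, 34 histones, 11 heat shock genes and 16 chaperones of the endoplasmic reticulum passed an adjusted p of 0.1 in edgeR, and 0, 3, 1, 1 and 4 of them had an unadjusted p under 0.05. With DESeq2 1 heat shock gene and 1 chaperone passed. Of 77 mitochondrial ribosomal proteins 1 was lower, of 30 genes of DNA replication and mitosis 1 was higher, and of 93 respiratory chain subunits 2 were higher and 1 lower. The medians of these lists lay between -0.14 for histones and 0.07 for replication. Several of these counts moved without cKO 4, when 7 mitochondrial ribosomal proteins, 8 respiratory chain subunits, 6 chaperones, 2 proteasome subunits and 1 heat shock gene were lower, and 15 respiratory chain subunits were with neither control 4 nor cKO 4. The replication gene lost its call without control 1, 3 or 4 or without cKO 1, 2 or 3. Immediate early genes, which react within minutes to handling of tissue, gave 5 of 17 higher and 1 lower, and 1 to 8 higher with 1 sample left out. With all samples 35.3% of them were called, against 6.45% of all tested genes. By length, 9.16% of genes in the quintile with the longest genomic span were called, against 5.15 to 6.38% in the other quintiles. On the X chromosome 2.24% of 446 genes were higher and 4.71% lower, against 3.56% and 2.86% on the autosomes. Of 6 genes expressed from both X chromosomes, on a list written after the values were seen, 3 were higher (50.0% called) and 0 lower. Their sum was 796 to 884 CPM in the controls and 871 to 1061 CPM in the cKO samples. The higher members numbered 0, 2 and 3 in the Xist, Rn45s and code prefix fits. The part of sex in these counts was not tested.

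**Figure D4:**
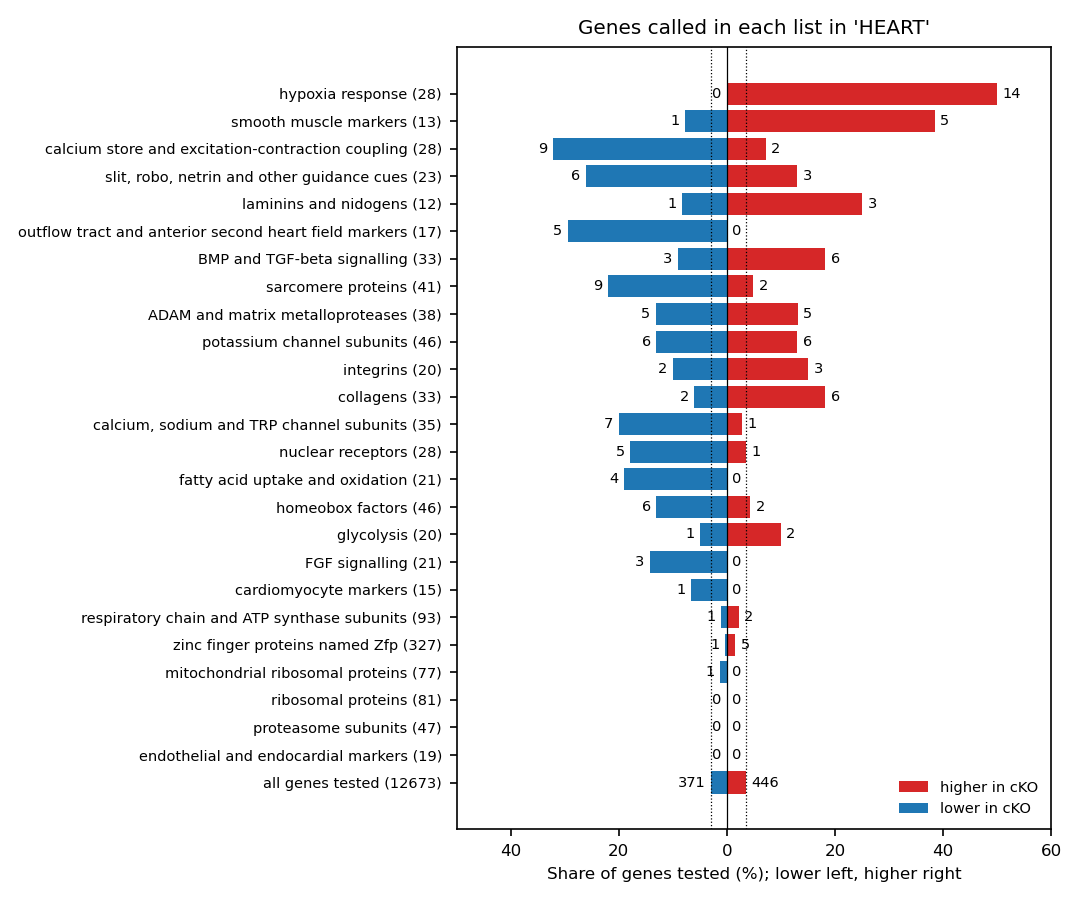
Share of tested members (x axis, percent) that were higher (red, to the right) and lower (blue, to the left) in cKO 'HEART' at an adjusted p of 0.1, one row per gene list, with the number tested in brackets, the number called at each bar and dotted lines at the shares over all tested genes. The hypoxia list reaches 50.0% on the higher side, and the ribosomal protein, proteasome and endothelial lists have no called member.

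Markers of other cell types were followed because the dissection can hold them. None of 19 endothelial and endocardial markers was called in edgeR (5 had an unadjusted p under 0.05, and DESeq2 called 1). Higher members numbered 4 without control 2, 2 without cKO 3 and 4 with the replicate number as a block. Their sum was 1340 to 1757 CPM in the controls and 1408 to 1766 CPM in the cKO samples. Of 9 tested erythroid markers none was called, but all 9 were below 0 on the log2 scale, with a median of -0.8. Of these, 3 had an unadjusted p under 0.05 in edgeR, DESeq2 called none, and 4 were lower with the replicate block. Their sum was 13110 CPM in control 4 against 4445 to 5912 CPM in the other controls and 1262 to 5884 CPM in the cKO samples, and leaving the erythroid genes out of the table gave 823 calls. Defining markers of macrophages (Ptprc, Aif1, C1qa) and of liver (Alb), and the neural crest gene Foxd3, were at a mean of 0 to 0.188 CPM in both genotypes. Other members of the macrophage and liver lists had more reads. Of 4 tested macrophage and platelet markers 1 was higher and 0 lower, and of 6 tested yolk sac and liver markers 1 and 0. The shares called were 25.0% and 16.7%, against 6.45% of all tested genes. The macrophage and platelet list summed to 19.6 to 28.8 CPM in the controls and 23.5 to 41.9 CPM in the cKO samples. The yolk sac and liver list summed to 14.4 to 47.8 CPM and 17.9 to 65.4 CPM. The neural crest markers summed to 82.5 to 122 CPM in the controls and 71.4 to 88.7 CPM in the cKO samples. Of 5 tested, Twist1 (-0.91 ± 0.15) and Alx1 (-1.60 ± 0.29) were lower, both also genes of mesenchyme outside the crest. Twist1 lost its call in the Xist, Rn45s and code prefix fits (adjusted p of 0.126, 0.108 and 0.102). Alx1 lost its call in the Rn45s and code prefix fits (adjusted p of 0.263 and 0.16).

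Keratins of simple epithelia, which the epicardium and the foregut share, separated control 4 from the other controls. Krt19 was at 84.0, 83.6, 87.6 and 144 CPM in the controls and 219, 249, 202 and 230.4 CPM in the cKO samples (1.17 ± 0.15, adjusted p = 0.000898). Krt8 was at 99.5, 97.3, 101 and 209 CPM against 205, 194, 185 and 187 CPM (adjusted p = 0.135) and Krt18 at 64.7, 62.7, 62.5 and 137 CPM against 127, 113, 113 and 126 CPM (adjusted p = 0.206). Control 1 to 3 lay close together and below all cKO samples, whereas control 4 lay at the cKO level for Krt8 and Krt18. Without control 4 the adjusted p values were 2.18e-05 and 5.8e-05. The epicardial list, of which Krt19 was the only called member among 13, summed to 1477 CPM in control 4, 979.6 to 1029 CPM in the other controls and 1326 to 1397 CPM in the cKO samples. The foregut endoderm genes Foxa2 and Shh were at a mean below 1 CPM in both genotypes. Of the 14 pharyngeal endoderm and epithelium markers, 7 passed the filter, these keratins among them. Krt19 was the only called one (14.3%, against 6.45% of all tested genes). Whether foregut tissue was in the dissection was not tested.

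**Figure D5:**
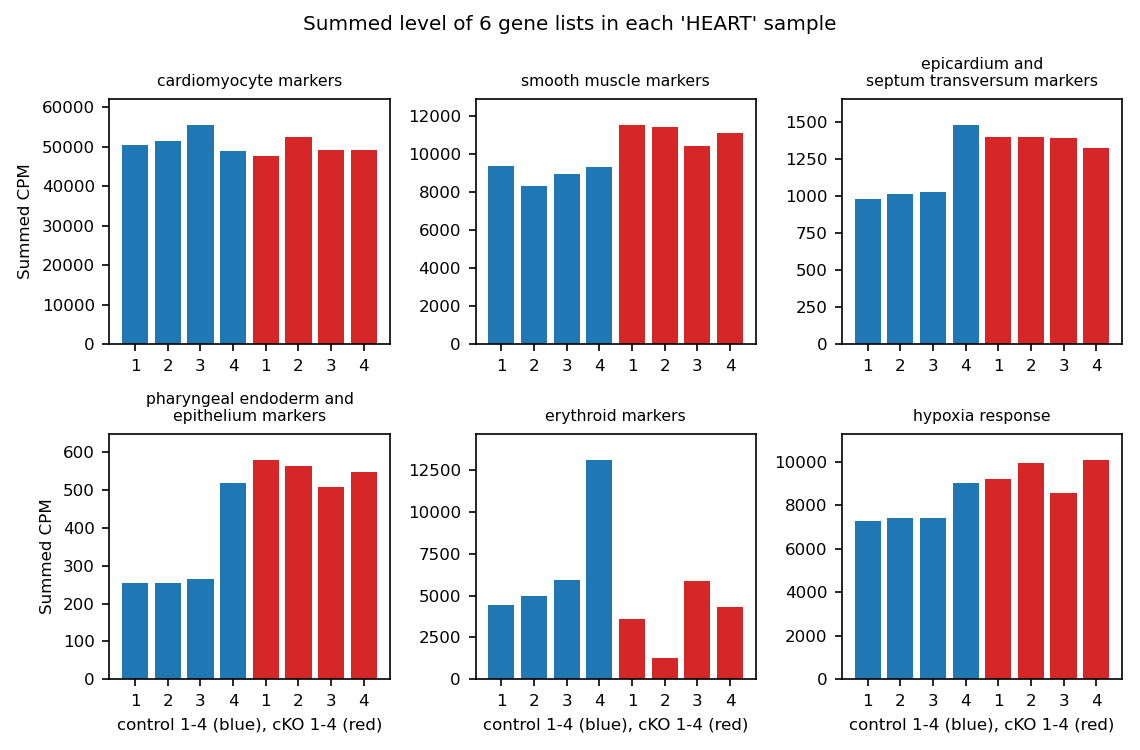
Summed CPM (y axis, bars from 0) of 6 gene lists in each of the 8 samples, control in blue and cKO in red, one panel per list. The smooth muscle sums separate the genotypes, the cardiomyocyte sums overlap, and control 4 stands apart from the other controls in the erythroid, epicardial, epithelial and hypoxia lists.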

How the data were processed

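Single hearts with OFT from 4 control and 4 cKO embryos of E9.5 were sequenced as paired-end, polyadenylated RNA libraries. Per the labels, the authors used fastp (0.20.1) for trimming, STAR (2.7.2b) for alignment against mm10, and featureCounts (1.6.4) for the count of each gene. No strand setting was found in the labels or methods, so antisense and overlapping genes cannot be separated. The deposited table holds raw counts, which were used here, and 8 columns of normalised values and the authors' fold changes and p-values, which were not. Of 24421 rows, 27 whose symbol had become a date were left out (at most 0.2196% of a sample's counts), and 98.5% of the rest matched GENCODE M21 (GRCm38), the source of coordinates.

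Counts were filtered with filterByExpr, scaled by TMM and tested with edgeR 4.0.16 (glmQLFit, glmQLFTest, R 4.3.3) on these 8 samples alone, with genotype as the only term. A gene was called at a Benjamini-Hochberg adjusted p under 0.1 over all 12673 tested genes. The biological coefficient of variation was 11.2%. CPM are counts per 1000000 counts scaled by TMM, the standard error was derived from the log2 fold change and its F statistic, and levels are not compared between genes. The test was run on simulated counts with known changes, drawn at the same dispersion for every gene. The simulation held none of the sample differences described above, so it cannot show how they affect the calls. Each sample is 1 embryo. The gene lists, members and tests were chosen with earlier results of these data known, and 3 of the lists were written after the values of this fit had been seen.

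Genes were named by a rule: Chd7, the 14 of smallest p in each direction (at least 5 CPM in a genotype, no overlap), the 8 of largest fold in each direction (at least 2 CPM), up to 4 called members of each list by smallest p, the 3 most abundant markers of each cell type list, and Xist and Y-linked genes, leaving out predicted genes. Exceptions are named in the text, and some genes that the rule gives are not reported here. Alternatives were DESeq2 1.42.0, limma-voom (limma 3.58.1), other scalings and filters, a threshold of 0.05, blocks for replicate number and embryo code prefix, covariates for Xist, Rn45s and Y-linked RNA, gene classes left out, and each sample left out in turn.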

Additional observations from a re-analysis of the deposited data

Results flagged for a closer look

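A sample was looked at again where its gap to the nearest of the other 3 of its genotype was above Dixon's critical share of the range of the 4, a limit that chance passes in about 1 in 20 groups. Over all 12673 tested genes this held for 733 (5.78%) in the controls and 845 (6.67%) in cKO, of which cKO 4 made up 464 and control 4 239. In the genes and list sums named in the text it held 31 times, with control 4 the sample in 13.

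Control 4 lay above the other controls in Col1a1 (716 CPM against 34.5 to 63.7), Postn (129.5 against 4.02 to 11.7), Lum (56.3 against 0.0810 to 0.855), Prrx1 (19.3 against 8.75 to 10.5), P4ha1 (166 against 121 to 125), Krt8 (209 against 97.3 to 101), Krt18 (137 against 62.5 to 64.7) and Krt19 (144 against 83.6 to 87.6), and below them in Etv1 (9.84 against 15.2 to 15.9). It was also the highest control in the sums of the epicardial (1477 CPM against 979.6 to 1029), pharyngeal epithelium (518 against 253 to 264), erythroid (13110 against 4445 to 5912) and hypoxia lists (9004 against 7254 to 7415). The keratins are members of both the epicardial and the epithelial list, so those values are not separate signs.

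Among the other controls, control 1 was low in Rn45s (3178 CPM against 6872 to 7078) and Ston1 (26.4 against 30.2 to 30.7) and high in Il15 (6.41 against 3.64 to 3.89). Control 2 was high in Enpep (17.0 CPM against 12.96 to 13.5), in Twist1 (18.03 against 13.4 to 14.1) and in the endothelial sum (1757 against 1340.0 to 1389), and control 3 was high in Synpo2 (229.7 against 187 to 189).

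Of the cKO samples, cKO 4 was low in Fgf10 (3.23 CPM against 4.87 to 5.16), Synpo2 (100.3 against 157 to 159), Nppb (81.2 against 176 to 194) and the epicardial sum (1326 against 1393 to 1397). The sample cKO 3 was high in Kcnj3 (1.99 CPM against 0.393 to 0.462), Pln (57.1 against 28.3 to 30.2) and Dmd (12.32 against 8.29 to 8.85) and low in Col2a1 (1839 against 2092 to 2119), Hand2 (95.4 against 105 to 107) and Il33 (3.75 against 4.72 to 4.77). In Col4a1 cKO 2 was high (1624 CPM against 1237 to 1249). What set these samples apart was not tested.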

How the results depend on the processing

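Chd7 kept its direction and its call under every alternative. The 817 calls (446 higher, 371 lower) were within 1.5 times that number with DESeq2 (994), limma-voom, RLE or total-count scaling, other filters, the random block for embryo code prefix (897), log2 Y-linked RNA (654) and without X and Y or erythroid genes. With 1 sample left out there were 502 to 1426 calls, 258 to 877 higher and 244 to 549 lower. The fixed block for the prefix gave 240 (104 higher, 136 lower), log2 Xist 221 (120 and 101), log2 Rn45s 157 (65 and 92), control 1 as the only control 252 (133 and 119), and neither control 4 nor cKO 4 1577 (955 and 622). A threshold of 0.05 left 290 higher genes. The Rn45s, Y-linked, control 1 and control 4 with cKO 4 settings were chosen after the data were seen. The cause of these shifts was not tested. Of the 116 named genes that were called, 42, 49 and 33 lost the call in the Xist, Rn45s and code prefix fits, 37 with control 1 as the only control, 6 with log2 Y-linked RNA, 1 each with DESeq2 and RLE and 1 to 8 with 1 sample left out, and none changed sign. Among genes that were not called, Col1a1 turned from lower to higher on the log2 scale (0.16 with control 1 alone, 0.13 with log2 Xist, 0.23 with neither control 4 nor cKO 4), as did Lum (1.15, 0.60 and 1.27) and Postn (0.14 with control 1 alone). Without control 4 Col1a1 was at 0.17 and Lum at 0.81, and with 1 other sample left out they reached -2.31 and -5.13. With 1 sample left out, higher and lower members numbered 4 to 7 and 2 to 3 for collagens, 3 to 6 and 3 to 5 for ADAM and matrix metalloproteases, 4 to 6 and 5 to 8 for potassium channels, 2 to 5 and 6 to 7 for slit and netrin cues and 0 to 2 and 3 to 6 for nuclear receptors, and lower members 4 to 6 for calcium, sodium and TRP channels and 2 to 4 for semaphorins and plexins.

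The replicate numbers of the titles did not pair the samples, since deviations of same-numbered samples correlated at 0.084, 0.055, 0.211 and -0.056, and not every sample correlated best with its own number. The replicate block gave 917 calls.

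Depth limited genes of few reads, and those below the filter were not tested. Sex, embryo code and ribosomal RNA content moved with genotype over 8 embryos, and their part was not tested beyond the fits above.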

Other observations

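Chamber markers differed in few members. Of 14 ventricular and trabecular markers 3 were higher and 1 lower, and of 13 atrial, atrioventricular canal and pacemaker markers 2 were lower. The shares called were 28.6% and 15.4%, against 6.45% of all tested genes. Omitting 1 sample, 2 to 5 ventricular markers were higher (the most without cKO 4) and 1 to 2 lower, and 1 to 2 atrial markers were lower. Nppb, the brain natriuretic peptide of the ventricular wall, was at 43.9, 96.1, 115 and 50.9 CPM in the controls and 187, 194, 176 and 81.2 CPM in the cKO samples (1.06 ± 0.31, adjusted p = 0.0788, edgeR). Its groups overlapped at cKO 4, and it lost its call without control 1 or 4 or without cKO 1, 2 or 3 (adjusted p up to 0.216). Tbx2, a repressor of chamber genes in the atrioventricular canal, was at 57.7, 40.2, 43.4 and 64.8 CPM against 35.9, 33.4, 34.8 and 36.1 CPM (-0.56 ± 0.13, adjusted p = 0.033), and at 0.119 without control 1 and 0.108 without cKO 2. Dmd, dystrophin, was lower (-0.87 ± 0.15) and Vcl, vinculin of the intercalated disc, was higher (0.31 ± 0.07), the latter with adjusted p values of 0.109 without cKO 1 and 0.101 without cKO 2.

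Gli2, a transcription factor of hedgehog signalling, was at 15.03, 12.5, 13.04 and 17.0 CPM in the controls and 28.1, 25.5, 25.0 and 20.9 CPM in the cKO samples (0.79 ± 0.12, adjusted p = 0.00297), and it was the called one of 14 hedgehog genes, of which 4 were higher without cKO 4 and 5 with neither control 4 nor cKO 4. With all samples 7.14% of the hedgehog genes were called, near the 6.45% of all tested genes. In the retinoic acid list Crabp2, a carrier of retinoic acid, rose by 0.70 ± 0.14 while Rxrg and Rarb were lower. Slc36a2, a proton-coupled amino acid transporter, was at 2.66, 2.05, 2.02 and 1.24 CPM against 0.629, 0.575, 0.821 and 0.539 CPM (-1.66 ± 0.33, adjusted p = 0.0123). Of 229 solute carriers 6.55% were called, near the 6.45% of all tested genes, with 7 higher and 8 lower. When 1 sample was left out these were 2 to 9 and 2 to 11, the fewest higher without cKO 1 or 2 and the fewest lower without control 3 or cKO 2. Each of Nppb, Tbx2, Dmd, Vcl, Gli2, Crabp2 and Slc36a2 lost its call in at least 1 of the Xist, Rn45s and code prefix fits.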
